A study of Mus musculus with 8 samples.

Results

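The regions described here lay near an annotated transcription start site and were open in all 4 groups of the study. They were found by merging the ATAC-seq peaks of the 4 deposited peak lists that lay within 400 bp of each other, and by keeping merged regions with a peak in every list and a start site no more than 5 kb away. Of 101701 merged regions, 12068 met this rule. The members were thus chosen by the presence of a peak in each group, and that they were open everywhere is a property of the choice and not a result. The study followed reprogramming of fibroblasts to pluripotency, and ATAC-seq, in which a transposase inserts adapters into accessible DNA, was run on 50000 cells per library, with 2 libraries per group. MEFs were mouse embryonic fibroblasts of the C57BL/6J-OG2 strain, with wild-type Jmjd3, collected at day 0 with no virus or overexpression. OSKM day 5 and OSKM day 10 were the same kind of MEFs, 5 and 10 days after retroviral infection with Oct4, Sox2, Klf4 and Myc (OSKM), with a FLAG control vector, in ESC medium containing 50 µg/ml vitamin C. ESCs were embryonic stem cells, labelled C57Bl6J for replicate 1 and C57BL/6J-OG2 for replicate 2. OG2 is an Oct4-GFP reporter transgene. The labels place the ESCs on feeder cells, whereas the methods give gelatin and 2i/LIF medium, so genotype, medium and cell state cannot be told apart in contrasts with ESCs. Infected cultures hold cells that do and do not proceed toward pluripotency, and the lists give the open regions of the whole culture.

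Promoters of genes that most cells need, often called housekeeping genes, usually lie in CpG islands, stretches of unmethylated DNA rich in CpG dinucleotides. Such promoters commonly start transcription at many positions, lack a TATA box and bind widely expressed factors such as ETS proteins, NRF1, SP1, NFY and YY1. Promoters and enhancers of cell-type-specific genes more often depend on factors such as AP-1 in fibroblasts or OCT4 in pluripotent cells.

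To show what these promoters look like, the 120 bp upstream of the reference start site is printed for 7 genes whose start site lay inside a member. A reference start site was the most upstream start among a gene's principal transcripts in the annotation, or among all its transcripts where none was tagged as principal. The first 6 genes come from 6 lists of housekeeping functions and were picked after their motif matches had been seen, and the fibroblast collagen gene Col1a2 was picked for having none. They are not typical in this respect, since 52.3% of 10577 start sites inside members had no match to any of the 9 promoter motifs in this stretch and 0.832% had matches to 3 or more, against 68.2% and 0.433% of all 21938 protein-coding start sites. Capitals mark exact matches, on either strand, to the motifs of ETS factors (CCGGAAG), NRF1 (GCATGCGC), SP and KLF factors (GC box, GGGGCGGG), NFY (CCAAT box, CCAATCA), CREB and ATF factors (CRE, TGACGTCA), YY1 (AAGATGGCG), MYC and USF (E-box, CACGTG), BANP or ZBTB33 (CTCGCGAG) and ZNF143 or THAP11 (CTACAATTC). Of 200 bp windows at all protein-coding start sites, 9.61% held the ETS motif, 2.72% NRF1, 18.3% the GC box, 6.19% the CCAAT box, 2.06% CRE, 1.93% YY1, 5.52% the E-box, 0.903% the BANP or ZBTB33 motif and 0.324% the ZNF143 motif. Matches may overlap, as the GC box and the ETS motif do at Sf3b6, and a match describes the sequence only. Sequences are from GRCm38 (mm10), 5′ to 3′ on the strand of the gene, and hold no annotated exon.
Psmc6, chr14:45329668-45329787, plus strand: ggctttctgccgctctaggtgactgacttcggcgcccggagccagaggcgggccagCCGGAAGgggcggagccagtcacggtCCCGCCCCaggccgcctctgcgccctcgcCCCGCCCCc
Polr2a, chr11:69758638-69758757, minus strand: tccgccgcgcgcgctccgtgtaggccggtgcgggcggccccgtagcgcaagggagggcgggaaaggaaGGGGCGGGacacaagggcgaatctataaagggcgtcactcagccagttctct
Med17, chr9:15279932-15280051, minus strand: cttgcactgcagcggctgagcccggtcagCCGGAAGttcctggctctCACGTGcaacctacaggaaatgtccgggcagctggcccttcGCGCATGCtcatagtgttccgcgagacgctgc
Sf3b6, chr12:4817424-4817543, plus strand: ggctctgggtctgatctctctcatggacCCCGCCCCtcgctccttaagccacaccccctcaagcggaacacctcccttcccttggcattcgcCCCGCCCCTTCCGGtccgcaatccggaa
Mcm4, chr16:15637401-15637520, minus strand: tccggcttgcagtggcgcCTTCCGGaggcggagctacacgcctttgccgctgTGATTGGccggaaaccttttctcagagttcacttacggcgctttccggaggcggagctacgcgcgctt
Cct8, chr16:87495874-87495993, minus strand: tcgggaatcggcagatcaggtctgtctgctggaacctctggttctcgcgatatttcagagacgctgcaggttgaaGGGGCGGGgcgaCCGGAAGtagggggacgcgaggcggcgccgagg
Col1a2, chr6:4505373-4505492, plus strand: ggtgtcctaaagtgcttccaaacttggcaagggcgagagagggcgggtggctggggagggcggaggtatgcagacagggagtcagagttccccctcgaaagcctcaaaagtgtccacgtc

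Psmc6 encodes a proteasome ATPase, Polr2a the largest subunit of RNA polymerase II, Med17 a Mediator subunit, Sf3b6 a component of the spliceosome, Mcm4 a subunit of the replicative helicase and Cct8 a chaperonin subunit. The member at Med17 spanned chromosome 9, 15279496 to 15280639, and held 1144 bp of peak in the MEF list, 748 bp in that of OSKM day 5, 841 bp for day 10 and 734 bp for ESCs. Series of 4 values below keep this order of groups. At Mcm4 (chromosome 16, 15636815 to 15638136), which shares its promoter with a divergent gene, the values were 1242, 1084, 1086 and 1144 bp. The member at Col1a2 (chromosome 6, 4505214 to 4507830) held 2617, 1678, 1520 and 993 bp, so MEFs had the most peak bp at all 3 of these genes, while the group with the least differed between them.

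The 4 deposited lists contained 56514 (MEFs), 36219 (OSKM day 5), 35226 (OSKM day 10) and 48486 (ESCs) peaks. Each list is the intersection of 2 libraries, with intervals as short as 1 bp, so that no spread between replicates can be computed and the number of reads is unknown. All intervals given here cover counting error only. Checked against defining markers, 6 of 6 fibroblast genes had a MEF peak within 1 kb of a start site, 5 had one at day 5 and 5 at day 10 (Thy1 was the exception on both days), and 3 in ESCs (Col1a1, Col1a2 and Twist2). Of 6 ESC markers, all had a peak in ESCs, Tfcp2l1 had one in all 4 lists, Esrrb one in MEFs, and Nanog, Dppa4, Zfp42 and Dppa5a had none outside ESCs.

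The members lay at start sites far more closely than the 5 kb limit required. A start site lay inside 11034 members (91.4%, 95% Wilson interval 90.9% to 91.9%), within 1 kb outside the region for 325 (2.69%) and at 1 to 5 kb for 709 (5.88%). Among all regions with a peak in every list, 14071 in number, 85.8% were near a start site (85.2% to 86.3%). This share was 26.4% for regions with a peak in 1 list, 30.7% for 2 lists and 42.1% for 3 lists, so the step was largest between 3 and 4 lists. The regions just inside the limit, at 4 to 5 kb, numbered 156, with a median merged width of 1158 bp and 15.4% of CpG-rich windows, and the 146 just outside it, at 5 to 6 kb, had 1030 bp and 17.1%.

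Member peaks were wider and scored higher than the rest of each list. The same lists chose the members, so these values are a description. They made up 21.4%, 33.6%, 34.5% and 25.2% of the peaks and 33.7%, 44.8%, 48.3% and 34.3% of the peak bp. The median width of a member peak was 1196, 842, 1035 and 890 bp, against 610, 503, 548 and 529 bp for the other peaks of the same list. Ranked by the −log10 q-value within each list, member peaks had a median percentile of 83.6, 66.7, 77.4 and 72.3. Day 5 thus had the narrowest member peaks and the lowest ranks, and MEFs the widest and highest. At the top of the lists the order was another one. Of the 1000 highest-scoring peaks, members held 91.4% at day 10 and 81.6% in MEFs, but 58.5% in ESCs and 57.8% at day 5. Members whose best peak ranked above the middle of its list made up 90.3%, 68.5%, 82.3% and 75.1%. Scores depend on the depth of the libraries, whose part in these differences was not tested.

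**Figure D1:**
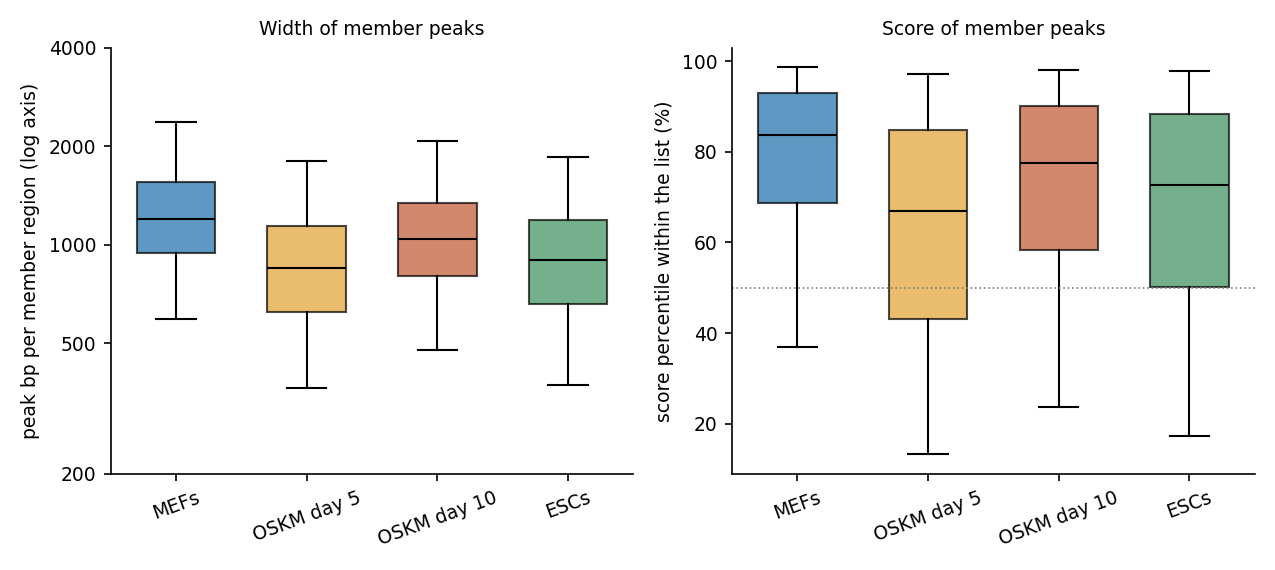
Peak bp (left, log axis) and highest score percentile within the list (right) of the 12068 members in each of the 4 lists. Boxes show the median and quartiles and whiskers the 5th and 95th percentiles over regions, which are not replicates. Median peak bp was 1201, 849, 1040 and 899 bp from left to right, and the boxes of all lists overlap.

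The merged regions had a median width of 1362 bp (quartiles 1089 and 1783 bp, from 351 to 6043 bp) and covered 18.2 Mb in all. A single peak in each list made up 97.6% of them, and in 98.3% at least 1 bp was covered by all 4 lists. This shared core had a median of 675 bp, or 51.5% of the merged width. Around the 10577 reference start sites inside members, the peaks were centred slightly downstream of the start. At the start site itself, 97.3% were covered by a MEF peak, and 90.1% and 90.2% by a peak of OSKM day 5 and of ESCs. At 500 bp downstream the shares were 76.4%, 47.2%, 62.3% and 51.3%, and at 500 bp upstream 47.2%, 30.2%, 43.5% and 33.1%, so each list was covered more often downstream than upstream.

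**Figure D2:**
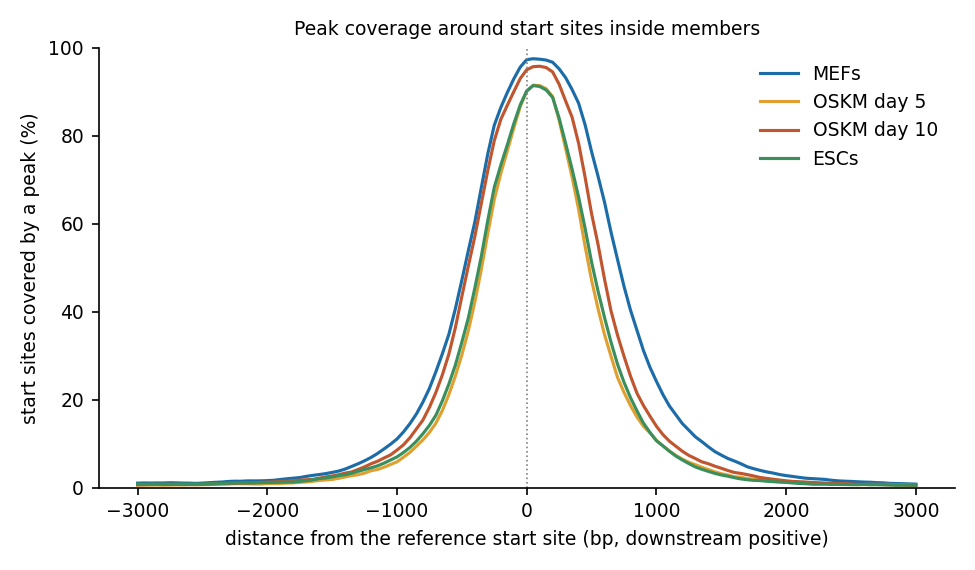
Share of the 10577 reference start sites inside members (vertical axis, %) that were covered by a peak at each distance from the start (horizontal axis, bp, downstream positive), with 1 line per list. All 4 lines are highest close to the start site, and the MEF line is the highest and broadest, with 24.2% of start sites still covered at 1000 bp downstream against 10.7% to 14.0% in the other lists.

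Genes were then assigned to members. Of 21938 protein-coding genes, 12280 (56.0%) had a member within 5 kb of any of their start sites, and 10577 (48.2%) had the reference start site inside one. Seen from the genes, 49.2% had a peak of every list within 1 kb of the reference start site, 34.5% had none in any list, and no other combination exceeded 2.93%, the share with a peak in ESCs only. The 19 gene lists used next were chosen with earlier results of these data known and are described by counts, beside the 56.0% and 48.2% of all genes.

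Genes of basic cell functions had members almost without exception. For protein synthesis, 74 of 78 cytosolic ribosomal protein genes (94.9%) and 18 of 20 aminoacyl-tRNA synthetase genes (90.0%) had a member within 5 kb. The reference start site lay inside a member for 68 of the ribosomal protein genes. Among the others, Rpl8, Rpl36 and Fau counted through a region that held the start site of another gene. For transcription and RNA processing, 12 of 12 genes of RNA polymerase II subunits, 36 of 40 of Mediator and cohesin subunits and 32 of 33 of core splicing factors had one. The counts were 32 of 32 for the proteasome, 58 of 59 for respiratory chain subunits, 14 of 14 for ATP synthase, 20 of 20 for DNA replication licensing and 21 of 21 for chaperonins and heat shock proteins. The reference start site lay inside a member for 11 of the RNA polymerase II, 36 of the Mediator and cohesin and 31 of the splicing genes. It did so for 31 proteasome, 57 respiratory chain, 13 ATP synthase, 20 replication licensing and 21 chaperonin and heat shock genes. Polr2g and Ndufb10 counted through regions that held the start sites of Zbtb3 and Rps2. In all of these lists together, the 12 genes without a member within 5 kb differed in which peaks were missing. Within 1 kb of the reference start site, the Mediator genes Med9, Med18, Med24 and Med27, the ribosomal protein genes Rpsa and Rpl10a and the synthetase gene Farsa had peaks in MEFs and on both OSKM days but none in ESCs, Rps4x and Cox6c lacked only the day 5 peak, Rars lacked only the MEF peak, and Rpl19 lacked both the day 5 and the ESC peak. Snrpc, which encodes a U1 snRNP protein, had no peak within 1 kb in any list. These counts rest on peaks of all scores. With the higher-scoring 50% of each list, 44 ribosomal protein, 23 Mediator and cohesin, 36 respiratory chain, 21 splicing, 9 ATP synthase and 6 RNA polymerase II genes had a member, and 7673 of all genes did.

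Among these lists, the members of replication licensing genes ranked high in every list, with median score percentiles of 94.3, 83.9, 91.5 and 88.6 over 20 regions. Chaperonin and heat shock genes had medians between 87.0 and 95.2 over 20 regions. For comparison, the 9489 members that held a reference start site had medians of 85.6, 69.7, 80.1 and 75.1. Ribosomal protein genes had 77.5, 62.6, 80.8 and 64.1 over 68 regions, below these in every group but day 10. Their members were also compact, with a median merged width of 1178 bp. Hsph1, which encodes a heat shock protein of the HSP110 family, had percentiles of 99.8, 99.7, 99.9 and 95.3, and Mcm7, another helicase subunit, 99.3, 94.7, 97.1 and 91.0.

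Gene families added to the comparison after the lists had been read fell on both sides of the 48.2% of all genes. The reference start site lay inside a member for 66 of 78 mitochondrial ribosomal protein genes (84.6%), 288 of 394 zinc finger genes named Zfp (73.1%) and 46 of 66 replication-dependent histone genes (69.7%). It did so for 0 of 1135 olfactory receptor genes, 1 of 331 vomeronasal receptor genes, 0 of 53 keratin genes and 0 of 64 defensin genes. Of genes on the X chromosome, 36.6% had a member within 5 kb, and on the autosomes 47.2% to 68.3% did. On the Y chromosome 3 of 183 genes did. Reads that mapped to more than 1 place were removed by the authors, and 69 of the 72 start sites behind a narrow maximum of NRF1 matches upstream of genes without a peak, shown further on, were on the Y chromosome. How far reads could be placed uniquely at such genes was not tested.

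**Figure D3:**
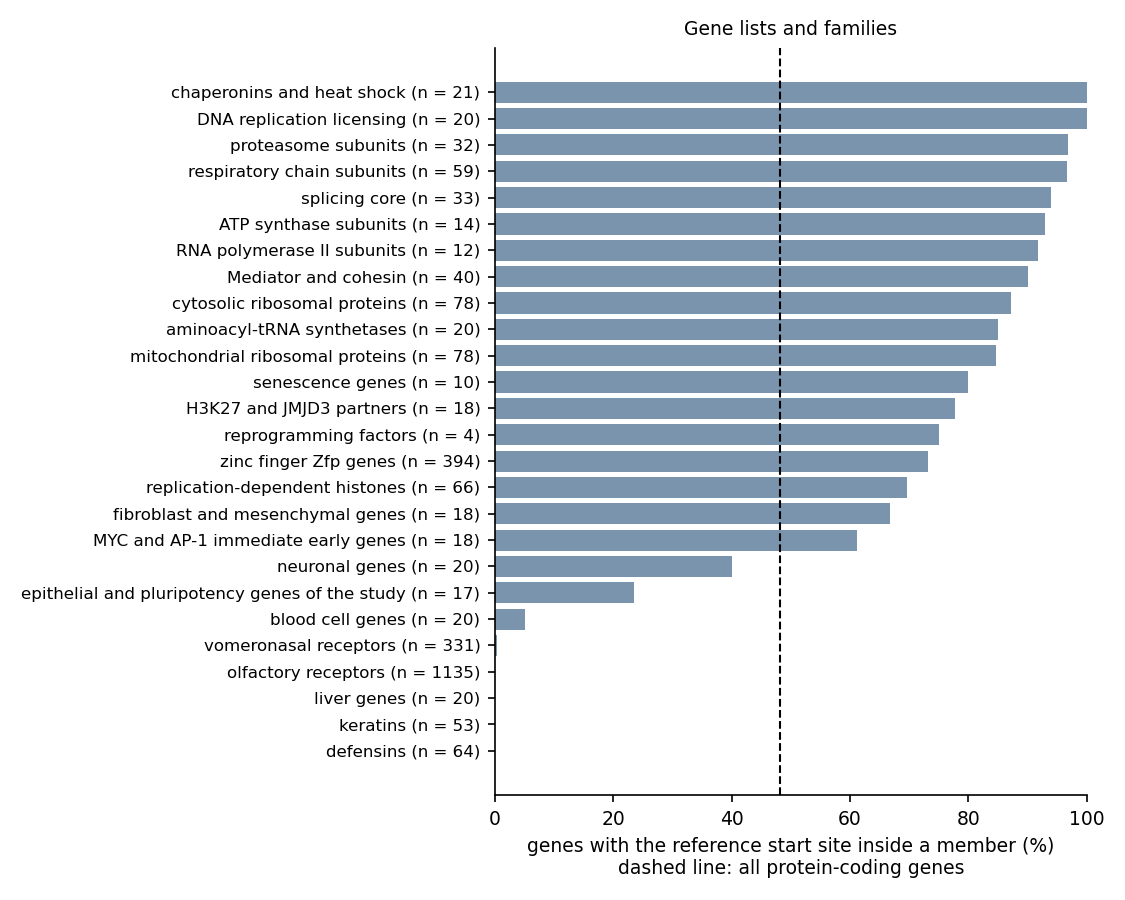
Share of the genes of each list or family (horizontal axis, %) whose reference start site lay inside a member, with the number of annotated genes in brackets and bars starting at 0. The dashed line marks the 48.2% of all protein-coding genes, and the lists of basic cell functions lie to its right, at 84.6% (mitochondrial ribosomal proteins) or more, while the liver and blood cell lists lie at 0% and 5.00%.

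Genes of single cell types gave lower and less even counts. Of 20 liver genes 3 had a member within 5 kb, and none had the reference start site inside one. The 3 were the apolipoprotein genes Apoa1, Apoa2 and Apoc3, with a member 1195, 2081 and 5104 bp from the reference start site. Apoa1 and Apoc3 counted through the same region, and the region of Apoa2 held the start site of Tomm40l. The 5 kb rule can thus credit a gene with a neighbouring element. Of 20 blood cell genes 2 had a member within 5 kb, Klf1 among them. Neuronal genes had members in 12 of 20 cases, more than these lists but close to the 56.0% of all genes. The reference start site lay inside one for 8 of 20, below the 48.2% of all genes. Scn1a, Scn2a and Map2 counted through other start sites, with the nearest members 57069, 47524 and 145008 bp from the reference start site. For Slc17a7 this distance was 1341 bp. Over these 8 regions the median score percentiles were 57.6, 37.8, 18.2 and 38.5. All members that held a reference start site had 85.6, 69.7, 80.1 and 75.1. Syt1, which encodes the calcium sensor of synaptic vesicles, ranked above the medians of the neuronal regions in every list. Its member held 1374, 1291, 1527 and 1457 bp of peak, with score percentiles of 92.8, 99.8, 99.4 and 79.3. At Snap25, another gene of vesicle fusion, the values were 2057, 1085, 492 and 690 bp. Transcription was not measured in these data.

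Fibroblast and mesenchymal genes had members in 14 of 18 cases (4 with the higher-scoring 50% of each list), so a peak in ESCs near the start site was found for most genes that mark the starting cells. Their members were widest in MEFs, with medians of 1788, 1263, 1325 and 1034 bp over 12 regions. The medians of all members, 1201, 849, 1040 and 899 bp, were also highest in MEFs. Col1a1, the other chain of type I collagen, had 1340, 514, 789 and 663 bp. Snai2, a repressor of epithelial genes, changed little, with 1279, 1220, 1320 and 1012 bp and percentiles between 94.1 and 96.5 in all lists. Zeb1, which has a similar role, went the other way, with 901, 658, 810 and 2106 bp. Acta2, Col3a1, Pdgfrb and Thy1 had no member. The epithelial and pluripotency genes that the study followed had members in 6 of 17 cases and the start site inside one in 4, the epithelial gene Ocln and the genes Sall1, Mycn and Tfcp2l1. At Ocln, which encodes a protein of tight junctions, the peaks spanned 1784, 546, 783 and 1719 bp, and the score percentile was 74.1 in ESCs but 18.5, 0.856 and 32.6 in the others. Nanog counted through a region 4067 bp from its reference start site, and within 1 kb of that site only ESCs had a peak.

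The genes around histone H3 lysine 27 methylation, which Jmjd3 (Kdm6b) removes, had members in 16 of 18 cases. Kdm6b itself had no peak of any list within 1 kb of its reference start site, but 2 members stood 1684 and 3672 bp from it. The nearer one (chromosome 11, 69408667 to 69411991) held 3309, 2799, 3286 and 1567 bp. The farther one (chromosome 11, 69417347 to 69419745) held 2109, 1709, 2346 and 1572 bp and was widest at day 10. Kdm6a, which encodes the related demethylase UTX, had 1765, 1351, 1380 and 2541 bp. For the Polycomb methyltransferase, the members were at Ezh2 with 1493, 1541, 1592 and 1540 bp, at Suz12 with 1489, 1046, 1219 and 1055 bp and at Eed with 1722, 1433, 1602 and 1200 bp. Thus Ezh2 was nearly even over the groups, Kdm6a was widest in ESCs, and Suz12 and Eed were widest in MEFs, where the median over all members was also highest. Phf20, a reader of histone methylation that Jmjd3 acts on in the study, had a region of 1224 bp with percentiles of 99.2, 95.1, 98.1 and 94.9. All 10 senescence genes had a member within 5 kb, and 8 had the reference start site inside one. Bmi1 counted through a region that held the start site of Commd3. At Cdkn2a, which encodes INK4A and ARF, the member held 1271, 1210, 1287 and 1352 bp, and the neighbouring region at Cdkn2b spanned 1190 bp with percentiles of 95.4 or more. The 18 immediate early genes, which respond quickly to serum and stress, all had a member, and 11 had the start site inside one. Those regions were wide, with a median merged width of 2567 bp against 1362 bp for all members, and their peaks had medians of 2304, 1842, 2082 and 976 bp. At Junb the values were 4012, 1877, 2785 and 1136 bp and at Ier3 2447, 2257, 2563 and 361 bp, whereas Fos had 2663, 2091, 2258 and 2440 bp.

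Divergent gene pairs were common among genes with a member. Another protein-coding gene started on the opposite strand within 1 kb upstream for 1448 of 12280 genes with a member (11.8%) and for 87 of 9658 genes without (0.901%), a difference of 10.9 percentage points (95% Newcombe interval 10.3 to 11.5). Both genes of a pair are counted and usually share 1 region, so the genes are not independent and the interval is too narrow.

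Base composition, which the rule did not use, set the members apart from the other classes. Windows of 200 bp at the midpoint of the widest peak had a mean GC content of 62.9% (SD 10.6 over 12068 regions), against 50.4% in 2003 regions with a peak in all lists over 5 kb from a start site, 46.7% in 7496 promoter-near regions open in MEFs only and 49.4% in 7245 open in ESCs only. CpG-rich windows, with at least 50% GC and a ratio of observed to expected CpG of at least 0.6, made up 66.8% of members (65.9% to 67.6%). This was 53.9 percentage points above the distal regions (52.2 to 55.6), 63.1 above the MEF-only regions (62.2 to 64.1) and 59.1 above the ESC-only regions (58.0 to 60.1). The share was higher in members on 19 of 19 chromosomes compared for the distal regions and on 20 of 20 for each of the other two classes. Within the members, composition differed with position. CpG-rich windows made up 70.7% of members with a start site inside, 37.2% of those within 1 kb and 18.5% of those at 1 to 5 kb, the last close to the 12.8% of distal regions. Peaks also differed in width and score between these classes, and the part of these in the composition was not tested. Repeat-masked sequence made up 8.79% of member bp on average, and 14 members were over 50% masked.

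Of the 9 promoter motifs, 6 were more frequent in members than in each of the 3 other classes, with intervals above 0. These were ETS, NRF1, the GC box, CRE, YY1 and the BANP or ZBTB33 motif. An ETS match lay in 8.20% of member windows (7.72% to 8.70%), against 1.34% of windows 1 kb to either side. Member windows were centred on the peak and not on the start site, where 9.61% of all protein-coding genes held a match. The difference was 5.95 percentage points from the distal regions (5.06 to 6.70), 7.18 from MEF-only regions (6.64 to 7.72) and 6.19 from ESC-only regions (5.60 to 6.78). The GC box matched 14.3% of member windows (flanks 2.62%, all start sites 18.3%) and 4.34%, 1.48% and 2.36% of the other classes. For NRF1 the shares were 1.65% in members and 0.699%, 0.334% and 0.317% in the others, for YY1 1.38% against 0.150%, 0.0667% and 0.469%, and for CRE 1.07% against 0.499%, 0.307% and 0.248%. The BANP or ZBTB33 motif matched 99 member windows (0.820%) and 2, 1 and 5 windows of the other classes. The CCAAT box gave no such contrast with ESC-only regions, at 3.56% against 3.70% (difference -0.136, -0.694 to 0.401), although with windows at the bases covered by most lists the difference was 1.24. The E-box did not differ clearly from the distal regions, at 4.58% against 3.74% (0.838, -0.153 to 1.68). At least 1 of the 9 promoter motifs was found in 26.8% of member windows, and 73.2% had none. Within the members, shares differed with position. ETS matched 8.75% with a start site inside, 1.54% within 1 kb and 2.68% at 1 to 5 kb. For the GC box these shares were 15.1%, 7.38% and 4.80%. The part of position in the contrasts with the other classes was not tested.

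Of the other motifs, AP-1, TEAD and the TATA box were scarcer in members than in each of the other classes. AP-1 (TGANTCA, where N is any base) matched 2.58% of member windows, below the 5.20% of their own flanks, against 9.94% of distal regions (difference -7.36, -8.77 to -6.09), 28.3% of MEF-only regions (-25.7, -26.7 to -24.6) and 5.80% of ESC-only regions (-3.22, -3.84 to -2.62). TEAD (ACATTCC) matched 1.72% against 4.44%, 6.22% and 5.85%, and the TATA box (TATAAAA) 1.01% against 2.65%, 4.55% and 3.17%. These contrasts were found for members as a whole and differed with position. AP-1 matched 2.16% of members with a start site inside, but 7.38% within 1 kb and 6.91% at 1 to 5 kb. Both of the latter lay above the 5.80% of ESC-only regions. For TEAD the 3 shares were 1.52%, 4.00% and 3.81%. The octamer of OCT4 (ATGCAAAT) matched 0.771% of member windows and 2.48% of ESC-only windows (-1.71, -2.12 to -1.34). The interval of its difference from the flanks of members, at 0.920%, included 0 (-0.149, -0.340 to 0.0569). The KLF motif CACCC (CCACACCC) matched 2.20% of members, with an interval including 0 against the 2.03% of MEF-only regions (0.176, -0.248 to 0.582), and was below the 3.27% of ESC-only regions (-1.07, -1.57 to -0.592).

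Since classes differed so widely in CpG content, the shares were also compared among CpG-rich windows alone, an alternative chosen after seeing the data, with 8057 windows in members and 257, 271 and 557 in the other classes. ETS stayed higher in members, at 10.6% against 6.61% in distal (difference 4.01, 0.230 to 6.55), 5.54% in MEF-only (5.09, 1.63 to 7.35) and 5.03% in ESC-only windows (5.60, 3.36 to 7.27). The GC box stayed higher than in distal windows (7.06, 2.53 to 10.5) and ESC-only windows (10.8, 8.17 to 12.9), but its interval against MEF-only windows included 0 (3.58, -1.20 to 7.41). The AP-1 share stayed lower than in distal (-3.18, -6.50 to -1.18) and MEF-only windows (-4.78, -8.33 to -2.45), and was 1.49% against 1.44% in ESC-only windows. For NRF1 the share was 2.21% in members, 2.21% in MEF-only and 2.72% in distal windows, with both intervals including 0, and for TEAD all 3 intervals included 0. Of the 6 motifs named above, ETS alone kept intervals above 0 against all 3 classes. YY1 kept one against MEF-only windows (1.97, 0.548 to 2.30), NRF1 against ESC-only windows (1.31, 0.0882 to 1.93), and CRE and the BANP or ZBTB33 motif against none. The E-box turned round against ESC-only windows, at 4.89% against 10.2% (-5.34, -8.17 to -3.04).

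**Figure D4:**
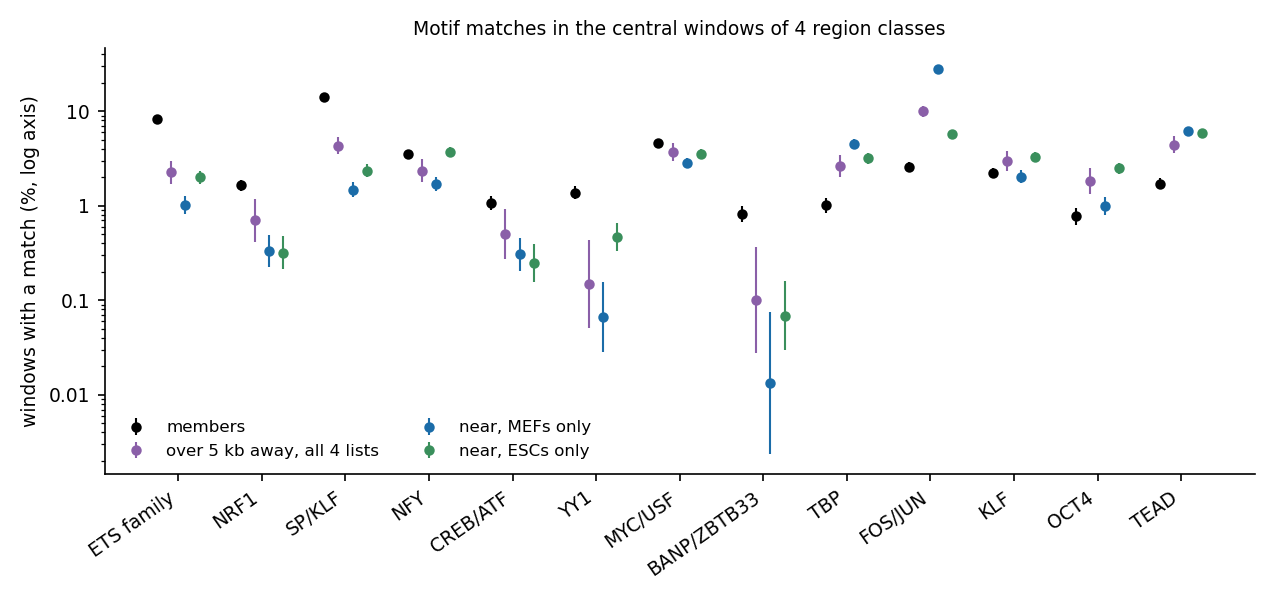
Share of 200 bp windows with a match to each motif (vertical axis, %, log scale) in members and in 3 other region classes, with 95% Wilson intervals as bars, which cover counting error only. Within a motif, members lie above the other 3 classes for the ETS family (8.20% of members) and SP/KLF (14.3%), among others, and below them for FOS/JUN (2.58%), TEAD (1.72%) and TBP (1.01%), and for NFY the members and the ESC-only regions lie together. The ZNF143 motif, with 24 matches in members, is left out.

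Around start sites, most promoter motifs had a maximum close to the start. In the bin from 50 to 1 bp upstream, 7.40% of 10577 start sites inside members held an ETS match and 14.3% a GC box, against 0.954% and 2.05% on average in the outer bins. NRF1 and CRE were also highest there, at 2.05% and 1.70%, the CCAAT box at 100 to 51 bp upstream, at 4.52%, and YY1 just downstream of the start, from 0 to 49 bp, at 2.04%. Of 7567 start sites without a peak of any list within 1 kb, 0.833% had an ETS match at 50 to 1 bp upstream. There the TATA box was highest at 50 to 1 bp upstream, at 3.12%, and in members it was highest far from the start. The CCAAT box was highest at 100 to 51 bp upstream in both sets, at 2.21% without a peak. Within 200 bp to each side, 85.1% of the member start sites and 4.35% of those without a peak were CpG-rich.

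**Figure D5:**
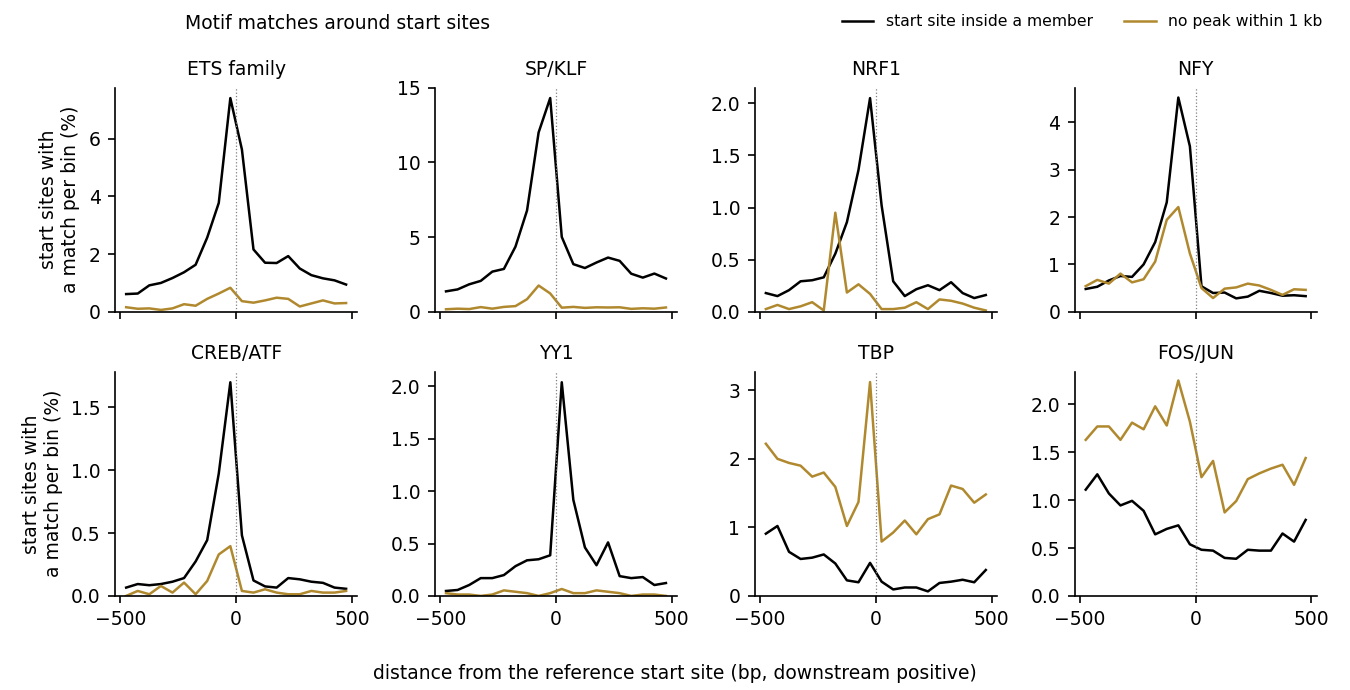
Share of reference start sites with a match in each 50 bp bin (vertical axis, %, a different scale in each panel) by distance from the start (horizontal axis, bp, downstream positive), for start sites inside members (black, n = 10577) and without a peak within 1 kb (brown, n = 7567). The first 6 panels peak close to the start in members, YY1 on the downstream side at 2.04%, and TBP (TATA box) and FOS/JUN are more frequent without a peak. The brown NRF1 peak comes mostly from genes of the Y chromosome.

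Members with and without a motif match differed in rank. Members with a CCAAT box match in the central window (n = 430) had median score percentiles of 92.5, 85.0, 90.0 and 86.8, against 83.3, 66.4, 77.0 and 72.1 without. With an ETS match (n = 989) they were 89.1, 75.8, 84.0 and 78.4 against 83.1, 66.1, 76.8 and 72.1. Members with a TATA match (n = 122) had lower ones, at 76.7, 61.7, 70.9 and 64.5, and were wider, with a median merged width of 1729 bp against 1359 bp. The direction was the same in all 4 lists for each of these 3 motifs, and no test was made.

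Between the groups, only width and score could vary, since presence was fixed by the choice. Peak bp in ESCs were 0.770 of those in MEFs at the median, close to the 0.794 over all 19455 regions with a peak in both lists. At least 2-fold more peak bp in ESCs than in MEFs were found in 211 members (1.75%), against 5.43% of all regions shared by these lists, and at least 2-fold more in MEFs in 2145 (17.8%), against 18.8%. From day 5 to day 10 the median ratio was 1.18 (all shared regions 1.12), with at least 2-fold more at day 10 in 7.52% of members and 8.44% of shared regions, and at least 2-fold more at day 5 in 1.24% and 3.54%. The members' shares of 17.8% and 7.52% were thus close to the background, and those of 1.75% and 1.24% were below it. The members are themselves part of the shared regions. Spearman's correlation of peak bp across the 12068 members, given as a description, was 0.72 for the pair of OSKM days and 0.47 for MEFs with ESCs, and the points share the rule that chose them.

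Windows of members of uneven width differed in sequence from those of the rest. Each window sat at the midpoint of the widest peak, so the widths that defined the uneven members also placed their windows. The part of this placement in the differences was not tested. Of the 9712 members within 2-fold between MEFs and ESCs, 71.2% had CpG-rich windows, against 51.1% of those wider in MEFs and 20.9% of the 211 wider in ESCs. ETS matched 8.96%, 5.36% and 1.90%, a difference of -3.60 percentage points (-4.65 to -2.42) for those wider in MEFs and -7.06 (-8.36 to -4.13) for those wider in ESCs. Octamer matches lay in 2.37% of members wider in ESCs and in 0.803% of the even ones (1.57, 0.199 to 4.63), and AP-1 matches in 5.69% and 2.30% (3.39, 0.966 to 7.39). AP-1 also matched 3.54% of those wider in MEFs (1.25, 0.476 to 2.16). A start site lay inside 71.1% of the members wider in ESCs, against 92.2% of the even ones, so position differed together with sequence.

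The members with the highest scores in every list were taken as those with the highest minimum percentile. The region at Zfp788, a zinc finger gene (chromosome 7, 41632608 to 41633926), came first and held 1319, 1163, 1204 and 1132 bp. Next was Hjurp, whose product loads the centromeric histone CENP-A, with 1313, 1164, 1454 and 1105 bp. The third was Ensa, which encodes an inhibitor of the phosphatase PP2A, with 925, 844, 945 and 935 bp. Among the others were Cic, a transcriptional repressor, Aco1, the cytosolic aconitase that also acts as an iron sensor, and the zinc finger gene Zfp960, each at or above percentile 99.75 in all lists. All 10 of these regions were between 868 and 1478 bp wide, so the highest scores were not those of the widest regions. The widest were at developmental and growth regulators, Nr2f1 with 6043 bp, Bcl11a with 5901, the Hedgehog receptor gene Ptch1 with 5678, Myc with 5500 and Mycn with 5230. The narrowest, at Zfp114, Mrpl33, Parp4, Lhpp and Zbtb22, spanned 351 to 456 bp. At Mrpl33, a gene of the mitochondrial ribosome, 378, 362, 347 and 333 bp were listed in the 4 groups, with percentiles of 87.4 to 88.5.

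From MEFs to ESCs, the largest gain of peak bp was at Nodal, which encodes a ligand of the TGF-beta family that acts in pluripotent cells. Its member (chromosome 10, 61415737 to 61418921) held 288, 315, 346 and 3185 bp, so in width neither OSKM day stood apart from MEFs. Its score percentiles were 26.7, 0.246, 3.32 and 67.8, so on the OSKM days its peak ranked near the bottom of the list. L1td1, which encodes an RNA-binding protein known from ESCs, had 1506, 795, 2352 and 3542 bp and was already wider at day 10 than in MEFs. Phc1, a Polycomb gene, had 1464, 1892, 1949 and 3270 bp, and Tfe3, which encodes a factor linked to the exit from pluripotency, 1775, 1931, 3423 and 3514 bp. The others in the top 10 were Slc43a1, Fetub, Etnk1, Upp1, Mgarp and Fbxo48, with gains from 1699 to 1934 bp. Score rank often went against width here. From MEFs to ESCs the percentile fell at Slc43a1 (83.6 to 66.7), Etnk1 (92.1 to 34.2) and Phc1 (78.9 to 69.0). It also fell at Fetub, Upp1, Mgarp and Tfe3, and rose at Nodal, L1td1 (28.6 to 60.3) and Fbxo48. All these genes were chosen for the difference in peak bp and carry no test.

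The largest loss of peak bp was at Bcl11a, with 5901, 2510, 3464 and 1948 bp. The immediate early gene Ier2 had 4236, 1336, 3081 and 640 bp, and Ccn1, which encodes a matrix-associated signalling protein, 3986, 2766, 3950 and 898 bp. At both, day 10 lay closer to MEFs than day 5 did. Ctnnb1, the gene of beta-catenin, had 3677, 425, 599 and 509 bp, and Alcam, an adhesion gene, 4031, 1334, 1344 and 948 bp, with both OSKM days closer to ESCs. Fst, which encodes the activin antagonist follistatin, had 4298, 821, 321 and 1403 bp and so was lowest at day 10. The remaining 4 of the top 10, at Atp8b2, Ccdc6, L3mbtl3 and a region shared by Hcfc1r1, Thoc6 and Tnfrsf12a, changed by -3593, -3320, -2959 and -3266 bp from MEFs to ESCs. Score rank often went the other way. From MEFs to ESCs the percentile rose at Bcl11a (41.9 to 58.6), Ccdc6 (64.1 to 91.2), Alcam (68.5 to 95.8) and Fst (30.1 to 60.6). It also rose at Ier2, Ccn1 and the region of Hcfc1r1, and fell at Atp8b2 (73.4 to 20.6), Ctnnb1 and L3mbtl3. A narrower peak was thus not always a lower-ranked one.

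Between the OSKM days, the largest gains by day 10 were at Tob2, which encodes an antiproliferative protein, with 2727, 502, 3886 and 316 bp, and at Ccnd1, the cyclin D1 gene, with 766, 500, 3767 and 774 bp. At Ccnd1 only day 10 was wide, while at Tob2 MEFs were wide too. Tfap2a, Ahdc1 and Enah followed, with gains of 2432 to 2582 bp. The largest losses were at Thbd, which encodes thrombomodulin, with 1423, 4157, 1944 and 1551 bp, with Cbln2, Fgf12 and the region of Foxm1 and Rhno1 also among the top 5, where peak bp changed by -2006, -1897 and -1578. At Fgf12 the day 10 interval was 19 bp long, so that membership there rested on a very short overlap of 2 libraries. Widest on both OSKM days relative to MEFs and ESCs were Adh7, with 695, 2707, 2796 and 520 bp, and Tmem110, with 801, 1856, 3404 and 852 bp. Narrowest on those days were Npr3, with 3483, 456, 428 and 2482 bp, Fst, Gm42517, Klf4 and the Wnt effector gene Tcf7l2, with 3061, 651, 789 and 2496 bp.

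Genes of the introduced factors need separate reading, because retroviral copies of their coding sequence were present at day 5 and day 10. At Klf4, 100% of the peak bp at day 5 (895 bp) and day 10 (939 bp) lay on annotated exons, against 35.9% of 3348 bp in MEFs and 47.4% of 2760 bp in ESCs. At Sox2, 100% of 782 bp and of 869 bp did, against 54.8% of 1665 bp and 31.1% of 1860 bp. Score percentiles at Klf4 and Sox2 were 99.5 or more on the OSKM days but between 18.4 and 65.3 in MEFs and ESCs. At Myc 51.8% and 52.4% of the OSKM peaks lay on exons, against 39.6% in MEFs and 33.7% in ESCs. Pou5f1, which encodes OCT4, was unlike Klf4 and Sox2, with 24.3% of 540 bp on exons at day 5, 37.6% of 1188 bp at day 10, 3.22% of 4074 bp in ESCs and no peak in MEFs within 1 kb of the gene. Its percentiles on the OSKM days were 56.3 and 21.5. Reads of the virus and of the gene cannot be told apart here, so the members at Klf4, Sox2 and Myc do not show that the gene's own promoter was open on these days. No peak lay within 1 kb of the reference start site of Klf4 or Myc at day 5 or day 10. Pou5f1 counted through a region 6618 bp from its reference start site, and within 1 kb of that site only ESCs had a peak.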

How the data were processed

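ATAC-seq had been done on 8 libraries, 2 per group. Per the labels and methods, the authors aligned reads to mm10 with Bowtie2 (2.2.0 in the submitters' processing notes, a different version in the methods), kept uniquely mapped reads (mapping quality above 30 in the labels, 35 in the methods) and removed mitochondrial reads. The peak caller and any shift of reads are not given in the sources used here. The authors deposited 1 peak list per group, the intersection of its libraries, so no spread between replicates and no depth could be had. As deposited, each interval carries a score (10 times the −log10 q-value, truncated), a fold enrichment as a linear ratio and −log10 p- and q-values, all those of replicate 1's peak. The ratio was read for description, and ranks within a list used the −log10 q-value. No column belonged to another series (0).

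Peaks within 400 bp were merged and compared with start sites of GENCODE release 21 on GRCm38, leaving out the mitochondrial genome. Members and gene lists were chosen with earlier results of these data known. Shares carry 95% Wilson and differences 95% Newcombe intervals, which treat regions as independent and cover counting error only. Named genes were those of the lists, the 10 members with the highest minimum percentile, the 10 with the largest gain and loss of peak bp from MEFs to ESCs, the 5 each way between the OSKM days, the 5 widest and narrowest, and the 5 most different each way between the OSKM days and the other groups. Apart from the lists, these held a protein-coding reference start site and were at most 50% repeat-masked. Gene families, printed sequences and the check of exons at the introduced factors were chosen after values were seen. Some genes that these rules named are not reported here. Alternatives changed merging, scores, distance, start sites, windows, masking and fold. Python 3.11.15, numpy 2.4.6, pandas 2.3.3, pysam 0.24.0 and matplotlib 3.10.9 were used, and the computations were tested on simulated data.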

Additional observations from a re-analysis of the deposited data

How the results depend on the processing

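Each group had a single list that merged its libraries, so leaving out a library was not run. No paired analysis was possible because the deposited lists combine replicates 1 and 2 of each group and carry no replicate numbers. The depth of the libraries is unknown and limits which weak peaks were listed. With the higher-scoring 50% of each list, 6730 members and 7673 genes with a member were left, a start site lay inside 96.1% of members, and the CRE difference from distal regions turned to -0.0569 percentage points. The share with a start site inside was 93.8% with lists of equal length, 93.5% with protein-coding start sites only, and 97.1% and 87.1% with limits of 1 kb and 10 kb. Among CpG-rich windows alone, chosen after seeing the data, the GC box against MEF-only regions (3.58), YY1 against distal regions (1.58) and TEAD against MEF-only regions (-1.07) kept their direction with intervals that now included 0. So did the BANP or ZBTB33 motif against distal (0.351), MEF-only (0.760) and ESC-only regions (0.411), CRE against ESC-only (0.480), the CCAAT box (1.43) and TATA (-0.0463) against MEF-only, and CACCC (-0.899) and the octamer (-0.708) against distal regions. There, differences from distal regions turned for NRF1 (-0.514), the CCAAT box (-0.242), CRE (-0.179), the E-box (-0.168), TATA (0.323) and TEAD (0.364). Differences from MEF-only regions turned for NRF1 (-0.00476), CRE (-0.0983) and the E-box (-1.38), and those from ESC-only regions for YY1 (-0.360), the CCAAT box (1.32), the E-box (-5.34), AP-1 (0.0531), CACCC (0.0292), the octamer (0.459) and TEAD (0.424). For the E-box against distal and the CCAAT box against ESC-only regions, the interval over all windows had included 0. The cause was not tested. With a 1.5-fold limit, 4.50%, 35.8%, 20.8% and 3.07% of members were wider in ESCs, in MEFs, at day 10 and at day 5. Of 523 values recomputed under 17 alternatives, 452 were classed as the same. The rest were not all changes of direction. They also included counts and shares that moved in size, and differences that became weaker or stronger.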
